A study of Rattus norvegicus with 30 samples.

Results

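Chondrogenesis between 12 and 72 h was examined in 6 of the 30 samples of the series, namely the 3 taken after 12 h and the 3 taken after 72 h in chondrogenic medium (CH). The cells were bone marrow mesenchymal stem cells (BMSCs) of the rat, that is, adherent stromal cells of the marrow that can form bone, fat or cartilage cells. Both groups shared the strain (Sprague Dawley), the donors (3 female rats of 3 weeks) and the passage (2), carried no genetic change, and differed in the time spent in a commercial chondrogenic medium. RNA of each sample came from cells of 3 pooled cultures, so the spread between samples of a group is a spread between such pools, which may be technical. The other groups used here are cells before induction (0 h), cells after 3 h in the same medium, and cells after 3, 12 and 72 h in osteogenic (OS) or adipogenic (AD) medium, with 3 samples each. Cells kept for 72 h without any of the 3 media were not analysed here, so time in the medium and time in culture cannot be told apart.

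Chondrogenesis begins when mesenchymal cells switch on Sox9, the transcription factor that drives the genes of cartilage matrix. That matrix is built from type II, IX and XI collagens, from the proteoglycan aggrecan, and from linking proteins such as cartilage oligomeric matrix protein (Comp). Ligands of the transforming growth factor (TGF)-beta and bone morphogenetic protein (BMP) families start the programme in culture, Wnt antagonists and insulin-like growth factor (IGF) signals shape it, and cells lose the stress fibres of spread fibroblasts while it proceeds.

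The values are CPM, that is, read counts of a gene scaled so that every sample has the same total, with no gene length in them. Levels are therefore compared between samples, for 1 gene or 1 sum of genes. Levels of different genes are set side by side only to show which members make up a sum. The totals behind them were 6312409 to 6923375 reads at 12 h and 3899609 to 4523111 reads at 72 h. A signal of 3 reads corresponded to 0.433 to 0.475 CPM at 12 h and to 0.663 to 0.769 CPM at 72 h, a limit that covers counting error only. The listed genes held 61.3 to 67.2% of the reads at 12 h and 60.5 to 67.7% at 72 h, and the 10 highest rows took 12.5 to 13.3% of the listed reads at 12 h and 22.5 to 22.9% at 72 h. Samples of a group correlated at 0.989 to 0.993 (Pearson's r across genes, which are not independent replicates). Some genes that every cell of this kind uses were listed near 0, with Actb at 0 to 5.39 CPM and Vim at 0 to 1.58 CPM over the 30 samples. A 0 is therefore given only as listed at 0. In bulk RNA, fewer cells of a type and less RNA per cell cannot be told apart.

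Of 4363 genes tested, 576 differed between 72 h and 12 h of chondrogenesis, which is 13.2% of them (limma on log2(CPM + 1), difference of at least 1 on the log2 scale and Benjamini-Hochberg adjusted p under 0.05 over all tested genes). Of these DEGs, 348 were higher at 72 h (7.98% of the genes tested) and 228 were lower (5.23%). In 572 of the 576 the 3 samples of 1 group lay entirely above the 3 of the other. Such groups without overlap were common, at 2036 of all 4363 tested genes (46.7%). A difference of at least 2 on the log2 scale was passed by 106 rising and 24 falling genes, and one of at least 4 by 19 rising and 3 falling genes. The median difference over all tested genes was -0.11. Scaling by median ratios in place of CPM moved the difference of a gene by a median of 0.16 and the median over all genes to 0.02, and gave 431 higher and 149 lower genes, so 74.3% of the DEGs rose against 60.4% with CPM. Small falls are therefore read against that shift below. A pseudocount of 0.1 in place of 1 gave 389 higher and 380 lower genes (50.6% higher).

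**Figure D1:**
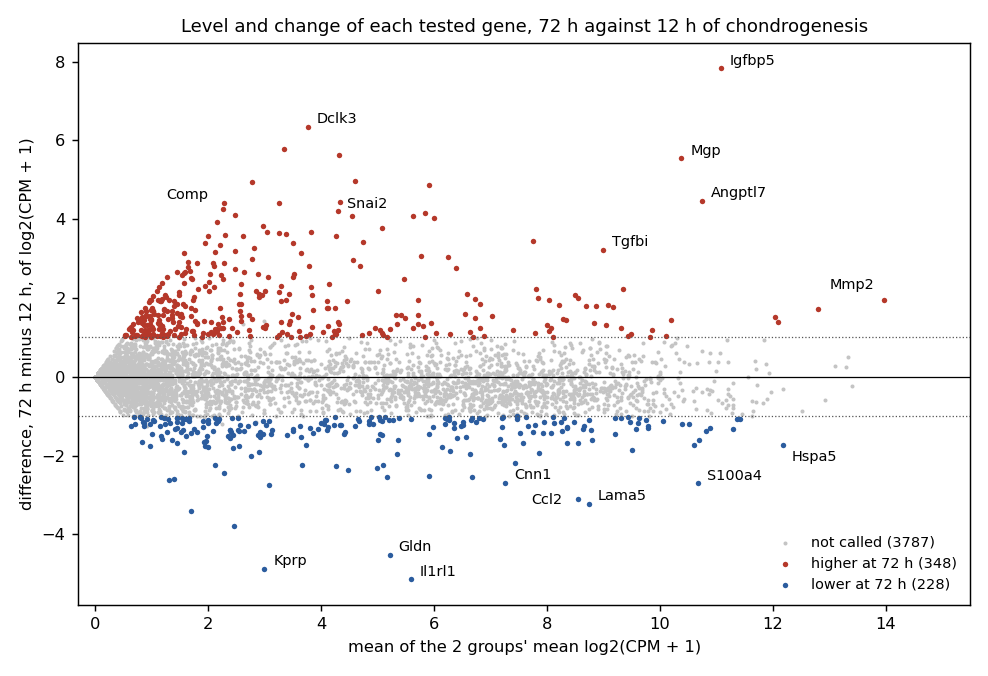
Each point is 1 of the 4363 tested genes, with its mean level over both groups on the x axis (log2(CPM + 1)) and the difference of 72 h minus 12 h on the y axis (log2 scale), red and blue for the 348 higher and 228 lower genes and dotted lines at a difference of 1. The rising genes extend to 7.83 for Igfbp5, and the falling ones to -5.14 for Il1rl1.

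Igfbp5, an IGF-binding protein that is secreted and held in the matrix, had 139, 149 and 138 CPM at 12 h and 33332, 32936 and 31633 CPM at 72 h. The 72 h samples lay far above all 12 h samples and close to each other, and the difference was 7.83 (SE 0.74, adjusted p = 7.35e-10). Matrix Gla protein, Mgp, an inhibitor of calcification, had 213, 184 and 186 CPM at 12 h and 10999.6, 8740.2 and 7896 CPM at 72 h. Here too the groups did not overlap, with a difference of 5.55 (SE 0.23, adjusted p = 8.28e-18). Angptl7, a secreted protein of the angiopoietin-like family, had 350.4, 473 and 291 CPM at 12 h and 9685, 7289 and 7432 CPM at 72 h. Its 3 samples at 72 h exceeded every 12 h sample, and the difference was 4.47 (SE 0.56, adjusted p = 1.85e-07). The earlier levels of these 3 genes differed. Igfbp5 averaged 5.51 ± 1.46 CPM (mean ± SD, n = 3) and Angptl7 0.489 ± 0.245 CPM in cells at 0 h, whereas Mgp averaged 2652 ± 84.2 CPM at 0 h and had dropped to 273 ± 14.2 CPM by 3 h in chondrogenic medium.

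Several of the 15 largest rises started from levels at or near the detection limit. Dclk3, a kinase of the doublecortin-like family, had 0.433, 0.623 and 0.475 CPM at 12 h and 146, 116 and 106 CPM at 72 h, a difference of 6.35 (SE 0.21, adjusted p = 5.5e-20). Adamts17, a secreted metalloprotease, had 0.433, 0 and 0.792 CPM at 12 h and 84.6, 74.5 and 66.5 CPM at 72 h, a difference of 5.79 (SE 0.23, adjusted p = 5.93e-18). In both genes all 72 h samples were far above the few reads seen at 12 h. Colgalt2, which adds galactose to the hydroxylysine of collagens, had 0.433, 0.312 and 0 CPM at 12 h and 42.1, 37.1 and 33.1 CPM at 72 h (log2 difference 4.95, SE 0.17, adjusted p = 1.74e-19). Itm2a, a membrane protein known from chondrocytes, had 0, 0.312 and 0 CPM at 12 h and 23.6, 21.2 and 15.6 CPM at 72 h (log2 difference 4.25, SE 0.5, adjusted p = 6.6e-08). No 12 h sample of Colgalt2 or Itm2a reached the lowest 72 h sample. Ibsp, the bone sialoprotein of mineralizing matrix, had 10.5, 16.4 and 11.2 CPM at 12 h and 318, 201 and 221 CPM at 72 h (log2 difference 4.17, SE 0.28, adjusted p = 7.26e-13). Its 72 h samples were all above those at 12 h, with sample 1 the highest. The other members of this group were Sbsn, the uncharacterized LOC102547056, the leucine-rich repeat protein Lrrc17, the engulfment receptor Megf10, Comp, the cyclin Ccnd2 and the zinc-finger repressor Snai2, with differences between 4.21 for Snai2 and 5.63 for Sbsn.

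**Figure D2:**
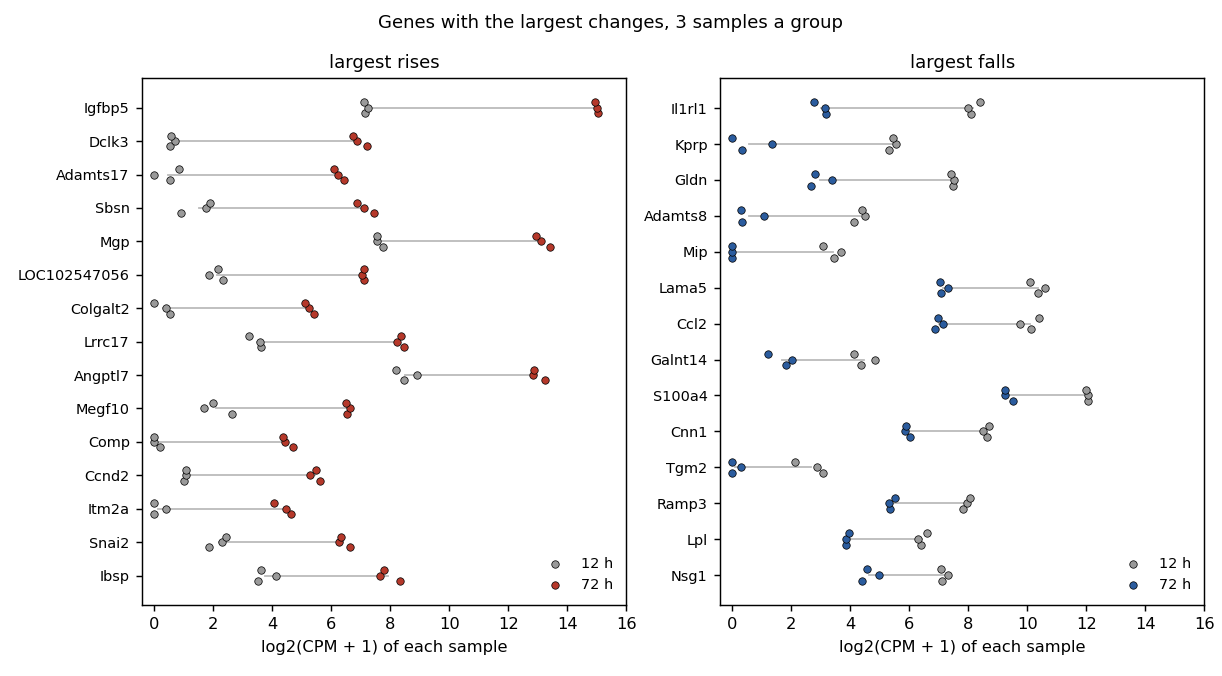
Each row is a gene and each point 1 sample, grey for 12 h and coloured for 72 h, on a log2(CPM + 1) axis, with the group means joined by a line. In all genes shown the 3 samples at 72 h lie on 1 side of the 3 at 12 h, and for Igfbp5 they lie between 31633 and 33332 CPM at 72 h.

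Most tested genes of the cartilage matrix rose. Of 45 listed members, 31 were named in the files and 12 could be tested. The members of this and the other lists were chosen with earlier results of these data known, so their shares are no independent evidence. Of these 12, 7 were higher at 72 h and none was lower in this test, against 7.98% higher among all genes, and the median difference was 1.92 against -0.11 over all genes. At an unadjusted p under 0.05 in limma 8 were higher and 0 lower, and edgeR and DESeq2 on the recovered reads called 8 and 9 higher and 0 lower. Among all 4363 genes 1834 passed that p in either direction, and edgeR and DESeq2 called 455 and 461 higher. With a Wnt antagonist and a growth factor among them, the 7 were Comp, Col9a2, Col9a3, Chadl, Matn4, Clec11a and Frzb. Of these, Comp, Col9a3, Chadl, Clec11a and Frzb were under 1 CPM in every 12 h sample and had little room to fall. Genes were tested if they reached 1 CPM in 3 or more samples, which the 72 h samples alone could supply. The lack of falling members is therefore in part set by that filter. Comp, the pentameric glycoprotein that links collagen fibrils, had 0.144, 0 and 0 CPM at 12 h and 25.1, 20.3 and 19.3 CPM at 72 h. All 12 h samples were at or under 1 read while all 72 h samples were clearly detected, and the difference was 4.43 (SE 0.23, adjusted p = 2.43e-15). Col9a2, a chain of the type IX collagen that decorates type II fibrils, had 2.17, 2.49 and 0.792 CPM at 12 h and 46.4, 32.1 and 24.02 CPM at 72 h. The groups did not overlap, and the difference was 3.65 (SE 0.34, adjusted p = 7.28e-10). Col9a3, another chain of type IX collagen, had 0.289, 0.935 and 0 CPM at 12 h and 4.62, 6.41 and 3.56 CPM at 72 h, a difference of 2.08 (SE 0.31, adjusted p = 3.16e-06). Matn4, a matrilin, which bridges collagen fibrils and proteoglycans, had 1.88, 2.805 and 1.11 CPM at 12 h and 14.4, 9.95 and 9.78 CPM at 72 h (log2 difference 2.1, SE 0.28, adjusted p = 5.01e-07). Clec11a, a secreted lectin-like growth factor of skeletal stroma, had 0.144, 0.623 and 0.634 CPM at 12 h and 15.6, 11.5 and 9.78 CPM at 72 h (log2 difference 3.18, SE 0.29, adjusted p = 4.33e-10). All 3 genes were higher in every 72 h sample than in any 12 h sample. Frzb, a secreted Wnt antagonist first isolated from cartilage, had 0.433, 0.467 and 0 CPM at 12 h and 9.74, 6.85 and 8.89 CPM at 72 h (log2 difference 2.88, SE 0.4, adjusted p = 1e-06). The collagen-binding protein Chadl had 0 to 0.289 CPM at 12 h and 1.54 to 3.76 CPM at 72 h (log2 difference 1.76, SE 0.31, adjusted p = 3.55e-05).

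The defining genes of mature cartilage were at or near 0 in these 6 samples. Col2a1, the chain of type II collagen, was listed at 0 in the 3 samples of 12 h and reached at most 0.769 CPM at 72 h. Acan, the core protein of aggrecan, and Hapln1, its link protein, were listed at 0 in all 6 samples. Of 7 tested genes of hypertrophy and bone, Mgp and Ibsp rose as given above (28.6%), and Col10a1, the collagen of hypertrophic cartilage, was at most 0.256 CPM. Dcn, which stromal cells of the marrow usually express, was also listed at 0 in all 6, so these zeros say little about the cells. Sox9 had 632, 718 and 564 CPM at 12 h and 1489, 1256 and 1152 CPM at 72 h, against 48.1 ± 2.38 CPM at 0 h (n = 3). Its groups did not overlap and the difference was 1.02 (SE 0.14, adjusted p = 1.15e-06), which fell to 0.94 without sample 3 of 12 h and to 0.92 without sample 1 of 72 h, just under the threshold of 1. Sox9 had already reached 603 ± 36.8 CPM after 3 h in chondrogenic medium. Of 16 tested chondrogenic regulators, Sox9 was the 1 that rose and Dlx3, a homeobox gene of bone-forming cells, the 1 that fell, with 19.8 to 26.6 CPM at 12 h and 6.92 to 9.34 CPM at 72 h (log2 difference -1.43, SE 0.3, adjusted p = 0.000259). The shares, 6.25% each, were near the 7.98% higher and 5.23% lower of all genes. Scx, a regulator of tendon and early cartilage progenitors, was at 17.9 to 20.1 CPM at 12 h and 24.3 to 27.6 CPM at 72 h and was not called.

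**Figure D3:**
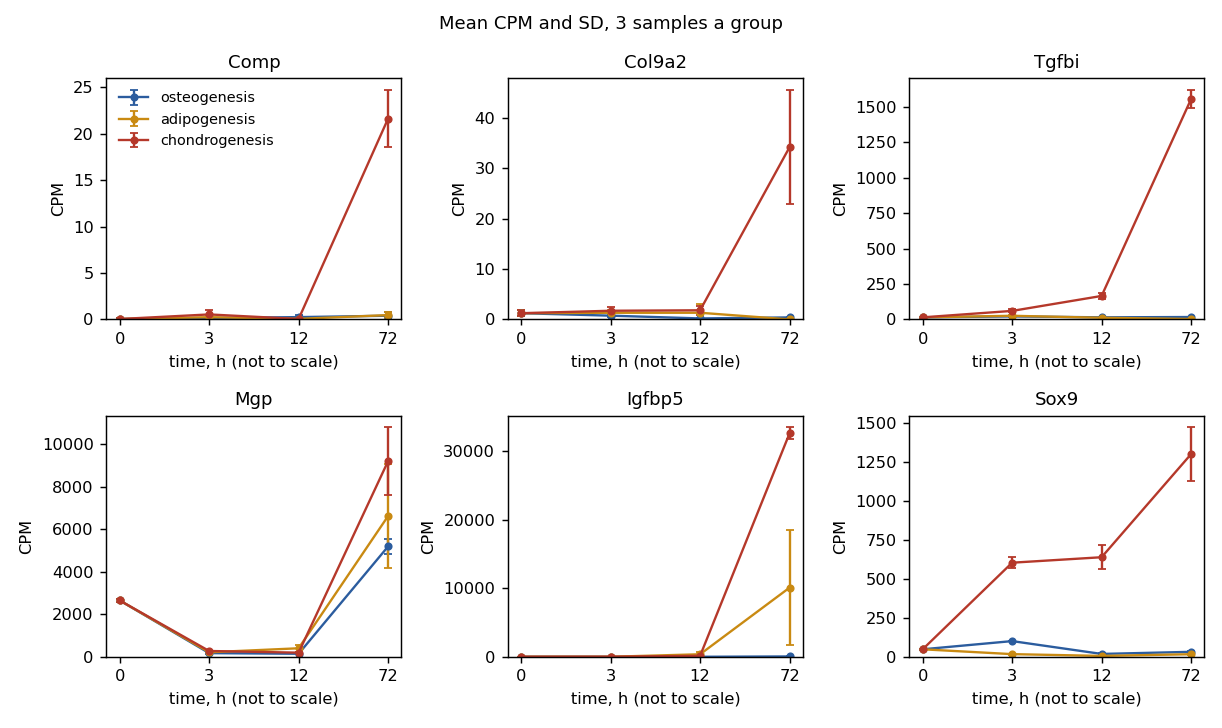
Points are the mean CPM of 3 samples and bars the SD, at 0, 3, 12 and 72 h (categories, not to scale), for osteogenesis, adipogenesis and chondrogenesis, which share the 0 h samples. At 72 h Comp, Col9a2 and Tgfbi average at most 0.468, 0.403 and 17.1 CPM in the other lineages, Mgp rises from 12 to 72 h in all 3, and Sox9 is already at 603 CPM after 3 h of chondrogenesis.

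Other matrix genes moved in both directions. Of 24 tested members outside the cartilage list, 7 rose and 3 fell (29.2% and 12.5%, against 7.98% higher and 5.23% lower among all genes). Tgfbi, a matrix protein named for its induction by TGF-beta, had 154, 187 and 156 CPM at 12 h and 1616, 1559 and 1485 CPM at 72 h. The samples at 72 h were tightly grouped and far above those at 12 h, with a difference of 3.23 (SE 0.3, adjusted p = 7.18e-10). Spon1, the matrix protein F-spondin, had 65.7, 68.4 and 59.7 CPM at 12 h and 776, 703 and 668 CPM at 72 h (log2 difference 3.45, SE 0.13, adjusted p = 5.22e-19). Col24a1, a minor fibrillar collagen, had 1.59, 0.935 and 1.43 CPM at 12 h and 32.6, 29.6 and 23.6 CPM at 72 h (log2 difference 3.67, SE 0.27, adjusted p = 3.46e-12). Every 72 h sample of both genes lay above every 12 h sample. The laminin chains of basement membranes split. Lama1 had 32.6, 33.3 and 27.4 CPM at 12 h and 222, 217 and 213 CPM at 72 h (log2 difference 2.77, SE 0.31, adjusted p = 1.97e-08), whereas Lama5 had 1303, 1554 and 1084 CPM at 12 h and 133, 156 and 129.9 CPM at 72 h (log2 difference -3.22, SE 0.18, adjusted p = 1.21e-14). Spon2 also fell, from 155, 175 and 147 to 58.98, 58.6 and 47.4 CPM (log2 difference -1.52, SE 0.38, adjusted p = 0.00189). In a list of 8 tested tendon and fibrocartilage genes, also chosen with earlier results known, Angptl7, Postn and Itgbl1 rose and Col5a1 fell (37.5% and 12.5%). Postn, a matricellular protein of periosteum and tendon, had 4.91, 1.402 and 3.33 CPM at 12 h and 47.95, 46.9 and 54.5 CPM at 72 h (log2 difference 3.68, SE 0.29, adjusted p = 1.64e-11). Itgbl1, a secreted protein with integrin-beta-like repeats, had 149 to 187 CPM at 12 h and 708 to 767 CPM at 72 h (log2 difference 2.09, SE 0.54, adjusted p = 0.0027), and Col5a1, which sets the width of collagen fibrils, had 19.8 to 23.1 CPM at 12 h and 7.07 to 8.45 CPM at 72 h (log2 difference -1.3, SE 0.24, adjusted p = 6.34e-05).

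Of 25 tested matrix proteases and inhibitors, 7 rose and 4 fell (28% and 16%, against 7.98% higher and 5.23% lower among all genes), with a median difference of 0.59. At an unadjusted p under 0.05 in limma 13 were higher and 4 lower, against 1834 of all 4363 genes in either direction. Mmp2, gelatinase A, had 7861, 9422 and 7259 CPM at 12 h and 33699, 30960.3 and 29413 CPM at 72 h (log2 difference 1.94, SE 0.18, adjusted p = 5.04e-10), and Timp2, its inhibitor and the partner in its activation, had 2297, 2728 and 2384 CPM at 12 h and 7605, 7042 and 6690.2 CPM at 72 h (log2 difference 1.53, SE 0.13, adjusted p = 6.36e-11). Both were higher in all 72 h samples, although Mmp2 missed the threshold with quantile normalization at 0.97. The serine protease-like Prss35 had 6.07, 7.79 and 7.92 CPM at 12 h and 97.4, 80.7 and 83.4 CPM at 72 h (log2 difference 3.42, SE 0.34, adjusted p = 1.74e-09). Adamts1, which cleaves aggrecan and versican, fell, with 2899, 3056 and 2683 CPM at 12 h and 954, 967 and 923 CPM at 72 h (log2 difference -1.6, SE 0.14, adjusted p = 1.69e-10). Of the 17 tested genes of collagen processing, 2 rose and 2 fell (11.8% each; 1 rose without sample 1 or 3 of 12 h or sample 3 of 72 h), and of 13 genes of glycosaminoglycan synthesis, 1 rose and 1 fell (7.69% each, near the shares of all genes). Of 19 adhesion genes, 3 rose and 2 fell (15.8% and 10.5%; 1 fell without sample 2 of 72 h). Itga10, the alpha subunit of a collagen-binding integrin of chondrocytes, had 0, 0.467 and 0.158 CPM at 12 h and 12.8, 12.2 and 9.78 CPM at 72 h (log2 difference 3.39, SE 0.23, adjusted p = 4.87e-13). Sdc1, a cell surface proteoglycan, had 478 to 569.8 CPM at 12 h and 193 to 218 CPM at 72 h (log2 difference -1.3, SE 0.17, adjusted p = 2.42e-07).

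In the TGF-beta and BMP pathway, 7 of 22 tested genes rose and 1 fell (31.8% and 4.55%, against 7.98% higher and 5.23% lower among all genes), with a median difference of 0.50. Among ligands, Inhbb, the beta B subunit of activins, had 107, 129 and 108 CPM at 12 h and 466, 456 and 458 CPM at 72 h (log2 difference 2.0, SE 0.16, adjusted p = 1.52e-11). Its groups were far apart and its 72 h samples nearly equal. Inhbe, the related beta E subunit, had 0 to 0.289 CPM at 12 h and 1.56 to 3.32 CPM at 72 h (log2 difference 1.57, SE 0.25, adjusted p = 1.13e-05). Gdf6, a BMP-type ligand of joint and skeletal development, was the 1 member that fell, with 28.02, 28.8 and 23.4 CPM at 12 h and 4.62, 5.53 and 4.45 CPM at 72 h (log2 difference -2.24, SE 0.33, adjusted p = 2.18e-06). The decoy receptor Bambi had 8.396 to 12.9 CPM at 12 h and 20.01 to 25.9 CPM at 72 h (log2 difference 1.13, SE 0.31, adjusted p = 0.00456). Among genes that this pathway is known to induce, Tgfbi rose as given above, and Id2 and Id3, which block basic helix-loop-helix factors, rose as well. Id2 had 2.46, 3.58 and 3.64 CPM at 12 h and 36.7, 36.9 and 35.4 CPM at 72 h (log2 difference 3.15, SE 0.24, adjusted p = 9.03e-12), with no overlap. Id3 had 274 to 288 CPM at 12 h and 659 to 789 CPM at 72 h (log2 difference 1.38, SE 0.2, adjusted p = 1.55e-06), and Atoh8, a basic helix-loop-helix factor, had 8.38 to 13.9 CPM at 12 h and 38.5 to 47.3 CPM at 72 h (log2 difference 1.93, SE 0.3, adjusted p = 4.91e-06). Of the other tested targets, Tsc22d1, Cyr61, Ctgf and Bhlhe40 were not called, with differences of 0.92, -0.74, -0.09 and 0.09. Id2 was summed from 2 rows of the same name.

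In the Wnt pathway, 4 of 21 tested genes rose and 1 fell (19.1% and 4.76%, against 7.98% higher and 5.23% lower among all genes), and 3 of those that rose dampen or bind Wnt signals. Sfrp2, a secreted antagonist, had 6.79, 9.97 and 7.76 CPM at 12 h and 133, 122 and 117 CPM at 72 h (log2 difference 3.78, SE 0.75, adjusted p = 0.000173). Frzb, given above, is of the same family, and Nkd1, an inhibitor that Wnt signals induce, had 11.6 to 13.1 CPM at 12 h and 23.3 to 34.1 CPM at 72 h (log2 difference 1.08, SE 0.19, adjusted p = 4.62e-05). Its difference was 0.92 without sample 1 of 72 h, and 6 genes of the list rose without sample 3 of 72 h. Lgr6, a receptor for R-spondins, had 0 to 0.312 CPM at 12 h and 1.77 to 3.59 CPM at 72 h (log2 difference 1.46, SE 0.21, adjusted p = 1.75e-06). Wisp2, a secreted target of the pathway, had 3.01 to 5.77 CPM at 12 h and 0 to 1.11 CPM at 72 h (log2 difference -1.67, SE 0.3, adjusted p = 5.6e-05). Of 12 tested genes of the Notch and hedgehog pathways, the ligand Dll1 was the 1 that rose (8.33%, near the 7.98% of all genes), with 1.01, 1.09 and 0.475 CPM at 12 h and 18.2, 14.8 and 14.9 CPM at 72 h (log2 difference 3.2, SE 0.37, adjusted p = 4.51e-08), and 3 rose without sample 1 of 12 h and 2 without sample 3 of 12 h or sample 1 or 2 of 72 h. In the IGF axis, Igfbp5 and Irs2 rose among 6 tested genes (33.3%). Irs2, an adaptor of the insulin and IGF receptors, had 46.9, 40.2 and 48.5 CPM at 12 h and 201, 204 and 187 CPM at 72 h (log2 difference 2.1, SE 0.14, adjusted p = 6.19e-13). No 12 h sample of Dll1 or Irs2 came near the 72 h samples.

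The study lists 142 transcription factors, chosen on these samples, so the list is no independent evidence of a direction. Of 131 tested, 21 were higher at 72 h, 3 were lower and 107 were not called, that is, 16% higher and 2.29% lower against 7.98% higher and 5.23% lower among all genes. Snai2, a repressor of epithelial genes, had 2.6, 3.896 and 4.44 CPM at 12 h and 98.98, 74.7 and 78.5 CPM at 72 h. All 72 h samples exceeded those of 12 h, and the difference was 4.21 (SE 0.28, adjusted p = 4.87e-13). Bhlhe41, a circadian repressor, had 7.08, 7.32 and 8.08 CPM at 12 h and 90.01, 53.9 and 57.6 CPM at 72 h (log2 difference 2.97, SE 0.28, adjusted p = 7.18e-10). Tfcp2l1, a grainyhead-family factor, had 0.289, 0 and 0 CPM at 12 h and 8.21, 5.97 and 4.003 CPM at 72 h (log2 difference 2.65, SE 0.31, adjusted p = 5.85e-08). In both, the lowest 72 h sample was above the highest 12 h sample. Jun, a subunit of AP-1, had 3.76, 3.74 and 3.64 CPM at 12 h and 23.3, 29.4 and 26.2 CPM at 72 h (log2 difference 2.53, SE 0.3, adjusted p = 6.57e-08), and Klf5 had 11.4, 12.8 and 19.3 CPM at 12 h and 63.1, 69.6 and 69.2 CPM at 72 h (log2 difference 2.17, SE 0.16, adjusted p = 8.49e-12). Klf4, a related Kruppel-like factor, had 171 to 179 CPM at 12 h and 359.8 to 435 CPM at 72 h (log2 difference 1.16, SE 0.21, adjusted p = 5.24e-05). Tsc22d3, a gene known to respond to glucocorticoids, had 97.7 to 107 CPM at 12 h and 406 to 554 CPM at 72 h (log2 difference 2.24, SE 0.15, adjusted p = 1e-12), and the forkhead gene Foxd2 had 1.901 to 3.58 CPM at 12 h and 12.5 to 15.9 CPM at 72 h (log2 difference 2.02, SE 0.32, adjusted p = 6.34e-06). The 3 that fell were Phb, Pax8 and Dlx3. Phb, a prohibitin of the mitochondrial inner membrane that also acts in the nucleus, had 375 to 484 CPM at 12 h and 164 to 202 CPM at 72 h (log2 difference -1.17, SE 0.13, adjusted p = 2.11e-08), which is -0.96 with median-ratio scaling. Pax8 had 2.53 to 3.9 CPM at 12 h and 0.221 to 1.28 CPM at 72 h (log2 difference -1.29, SE 0.27, adjusted p = 0.000312). Jun, Klf5, Klf4 and Klf10 made up the 4 risen genes among 13 tested immediate-early and MAPK feedback genes (30.8%). Klf10 was at 0.977 without sample 2 of 12 h. In that list Ier3 fell, but it was not called without sample 2 of 12 h (adjusted p = 0.0949) or sample 2 of 72 h (adjusted p = 0.082), after thinning to the lowest total of reads (adjusted p = 0.121), with DESeq2 (adjusted p = 0.0563), or with median-ratio scaling (-0.961) or a common total of the listed genes (-0.997). In all, 0 genes of the list fell without sample 2 of 12 h and 2 fell without sample 3 of 12 h or sample 1 of 72 h.

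Il1rl1, the receptor for interleukin 33, had 271, 254 and 332 CPM at 12 h and 7.95, 7.74 and 5.78 CPM at 72 h. The 12 h samples were all more than an order above those of 72 h, and the difference was -5.14 (SE 0.36, adjusted p = 1.53e-12). Kprp, known from keratinocytes, had 38.4, 46.1 and 42.5 CPM at 12 h and 0.256, 1.55 and 0 CPM at 72 h (log2 difference -4.87, SE 0.65, adjusted p = 5.43e-07). Gldn, gliomedin, an extracellular protein known from nodes of Ranvier, had 179, 181 and 168 CPM at 12 h and 5.39, 9.51 and 6.004 CPM at 72 h (log2 difference -4.51, SE 0.37, adjusted p = 3.73e-11). No 72 h sample of these genes came near a 12 h sample. Mip, a water channel known from the lens, had 9.82, 11.8 and 7.45 CPM at 12 h and was listed at 0 in the 3 samples of 72 h (log2 difference -3.4, SE 0.16, adjusted p = 2.91e-16). DESeq2 on the recovered reads did not call it (adjusted p = 0.42). S100a4, a calcium-binding protein of motile fibroblasts, had 4264, 4223 and 4094 CPM at 12 h and 731, 602 and 603 CPM at 72 h (log2 difference -2.7, SE 0.22, adjusted p = 2.83e-11). The chemokine Ccl2 had 1122, 861 and 1351 CPM at 12 h and 115, 141 and 125 CPM at 72 h (log2 difference -3.1, SE 0.34, adjusted p = 1.36e-08). For both, the highest 72 h sample was well under the lowest 12 h sample. Others among the 15 largest falls were Adamts8, Galnt14, Cnn1, Tgm2, Ramp3, Lpl and Nsg1, besides the laminin chain Lama5, with differences of -3.78 for Adamts8 to -2.52 for Nsg1.

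Genes of the contractile cytoskeleton that changed mostly fell. Of 27 tested members, 7 were lower at 72 h and 1 was higher, against 5.23% lower among all genes, and the median difference was -0.65 against -0.11. With median-ratio scaling 5 were lower. Cnn1, calponin of smooth muscle and stress fibres, had 393, 358 and 413 CPM at 12 h and 64.4, 56.8 and 57.6 CPM at 72 h. The 72 h samples were near each other and all below those of 12 h, with a difference of -2.68 (SE 0.17, adjusted p = 1.27e-13). Tagln, transgelin, had 69.04, 69.7 and 72.4 CPM at 12 h and 20.8, 22.6 and 24.5 CPM at 72 h (log2 difference -1.6, SE 0.22, adjusted p = 7.28e-07). Tpm2, a tropomyosin, had 22.5, 18.2 and 30.4 CPM at 12 h and 4.87, 7.96 and 6.45 CPM at 72 h (log2 difference -1.73, SE 0.28, adjusted p = 9.63e-06), and Vcl, vinculin of focal adhesions, had 7.37, 10.8 and 11.4 CPM at 12 h and 3.33, 2.43 and 1.11 CPM at 72 h (log2 difference -1.76, SE 0.29, adjusted p = 1.12e-05). The other members that fell were Myl6, Tpm4 and Cfl1. Cfl1, cofilin, had 3900.1 to 4141 CPM at 12 h and 1800.2 to 1932 CPM at 72 h (log2 difference -1.08, SE 0.13, adjusted p = 1.15e-07) and Tpm4 1292 to 1861 CPM at 12 h and 681 to 754 CPM at 72 h (log2 difference -1.13, SE 0.19, adjusted p = 2.34e-05), and both missed the threshold with median-ratio scaling, at -0.87 and -0.92. The 1 member that rose was Myh10, the heavy chain of non-muscle myosin IIB, with 3579.9, 4501 and 3771 CPM at 12 h and 15160.2, 12070.0 and 12082 CPM at 72 h. Its 72 h samples were all above the 12 h samples, a difference of 1.73 (SE 0.11, adjusted p = 1.27e-13).

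Genes of the endoplasmic reticulum (ER) secretory pathway fell in part. Of 36 tested members, 7 were lower and 1 was higher (19.4% and 2.78%, against 5.23% and 7.98% of all genes), with a median difference of -0.57. The median was -0.39 in osteogenesis and -0.62 in adipogenesis. With median-ratio scaling 4 were lower and 4 higher, so the balance of this list depends on the scaling. Without sample 2 of 12 h or sample 3 of 72 h, 3 were higher, and without sample 1 of 72 h, 2 were. Hspa5, the ER chaperone BiP, had 8101, 9416 and 7762 CPM at 12 h and 2636, 2538 and 2429 CPM at 72 h. The groups did not overlap, and the difference was -1.73 (SE 0.18, adjusted p = 3.38e-09). Spcs3, a subunit of the signal peptidase, had 963, 1006 and 973 CPM at 12 h and 326, 367 and 382 CPM at 72 h (log2 difference -1.45, SE 0.14, adjusted p = 1.27e-09). Sdf2l1, a partner of BiP, had 87.7, 101 and 107 CPM at 12 h and 43.6, 38.5 and 26.9 CPM at 72 h (log2 difference -1.44, SE 0.29, adjusted p = 0.000201). Sec23a, a coat protein of the vesicles that leave the ER, had 22.7, 22.9 and 24.6 CPM at 12 h and 5.64, 10.4 and 11.1 CPM at 72 h (log2 difference -1.33, SE 0.25, adjusted p = 7.18e-05). In these 3 genes also every 72 h sample was lower. The protein disulphide isomerases Pdia4 (-1.2) and Pdia6 (-1.19) and the retrieval receptor Kdelr2 (-1.2) fell as well, but stood at -0.994, -0.978 and -0.997 with median-ratio scaling, which is under the threshold, and Kdelr2 stood at -0.98 without sample 2 of 12 h. Chac1, a glutathione-degrading enzyme known as a target of ATF4, went the other way, with 10.98, 10.9 and 10.9 CPM at 12 h and 204, 201 and 202 CPM at 72 h, a difference of 4.09 (SE 0.18, adjusted p = 2.77e-17).

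The promoters of 2 members that fell are shown because genes of the ER stress response are known for short elements near their start sites. The windows reach from 250 bases before to 50 after the start, from RefSeq on GRCr8, 5′ to 3′ on the strand of the gene. Capitals mark CCACG, the last part of the ER stress response element, and TGACGTGG, the element bound by ATF6 and XBP1, whose last letters contain CCACG on the other strand.
Hspa5 (chr3:38452766-38453065, plus strand): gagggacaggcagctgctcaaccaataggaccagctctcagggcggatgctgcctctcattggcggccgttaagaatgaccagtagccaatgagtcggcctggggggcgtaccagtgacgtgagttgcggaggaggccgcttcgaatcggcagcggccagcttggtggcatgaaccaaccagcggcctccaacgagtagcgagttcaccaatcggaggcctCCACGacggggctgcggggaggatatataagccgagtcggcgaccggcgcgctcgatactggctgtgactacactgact
Sec23a (chr6:82440855-82441154, minus strand): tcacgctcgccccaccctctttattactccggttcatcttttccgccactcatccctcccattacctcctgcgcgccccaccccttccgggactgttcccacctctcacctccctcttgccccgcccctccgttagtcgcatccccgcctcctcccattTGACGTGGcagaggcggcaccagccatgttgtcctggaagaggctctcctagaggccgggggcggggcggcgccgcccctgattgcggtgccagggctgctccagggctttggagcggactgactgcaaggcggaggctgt
On either strand, CCACG was in 23 of 30 members with a window, in 4 of the 5 such members that fell, and in 31.6% of all 33469 windows. Among tested genes with a window the share was 47.8%. TGACGTGG was in 1 member, Sec23a, in 0.595% of all windows and in 1.15% of those of tested genes. These are matches of letters, and no binding was measured.

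Of 9 tested ribosome biogenesis genes, 4 fell and none rose (44.4% lower, against 5.23% among all genes), with a median difference of -0.96. Over the same interval the median was -1.33 in osteogenesis and -0.38 in adipogenesis. At an unadjusted p under 0.05 in limma 8 were lower and 0 higher, and edgeR and DESeq2 each called 3 lower and 0 higher. Among all 4363 genes 1834 passed that p in either direction, and edgeR and DESeq2 called 199 and 186 lower. Utp20, of the small subunit processome, had 337, 381 and 332 CPM at 12 h and 125, 149 and 126 CPM at 72 h (log2 difference -1.39, SE 0.1, adjusted p = 1.35e-12). Rrp12, an export factor of pre-ribosomes, had 238, 271 and 235 CPM at 12 h and 79.2, 86.0 and 79.6 CPM at 72 h (log2 difference -1.59, SE 0.14, adjusted p = 1.67e-10). All 72 h samples of both were lower. Tsr1, which acts late on the small subunit, had 3.96 to 8.73 CPM at 12 h and 0.663 to 2.45 CPM at 72 h (log2 difference -1.78, SE 0.33, adjusted p = 6.26e-05), and Bysl, of the same pathway, fell by 1.02 on the log2 scale, under the threshold with median-ratio scaling (-0.81) and without sample 2 of 12 h (-0.91) or sample 2 of 72 h (-0.97). Of 59 ribosomal protein genes, 4 fell (6.78%) and 1 rose (1.69%), with a median of -0.51, and of 40 genes of oxidative phosphorylation, 1 fell and 1 rose (2.5% each). At an unadjusted p under 0.05 in limma, with no limit on the size of the difference, 30 ribosomal protein genes were lower and 5 higher, and 16 genes of oxidative phosphorylation were lower and 3 higher, against 1834 of all 4363 genes in either direction. These counts of 1 moved to between 0 and 2 for risen ribosomal protein genes, without samples 1 and 2 of 12 h and 1 and 3 of 72 h in turn, and to 2 for fallen genes of oxidative phosphorylation, without samples 1 and 3 of 12 h and 1 and 2 of 72 h.

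Among 22 tested genes of cholesterol and fatty acid synthesis, 5 fell and 1 rose (22.7% and 4.55%, against 5.23% lower and 7.98% higher among all genes). Their median difference was -0.28, against -0.87 in osteogenesis and -0.97 in adipogenesis. Cyp51, the lanosterol demethylase, had 3899, 3970.2 and 4085 CPM at 12 h and 1785, 1579 and 1448 CPM at 72 h (log2 difference -1.32, SE 0.14, adjusted p = 9.45e-09), and Msmo1, which acts after it, had 1338, 1355 and 1479 CPM at 12 h and 595, 536 and 563 CPM at 72 h (log2 difference -1.3, SE 0.15, adjusted p = 4.57e-08). Both were lower in every 72 h sample. Fasn, fatty acid synthase, had 3328 to 4465 CPM at 12 h and 1759.6 to 1872 CPM at 72 h (log2 difference -1.06, SE 0.15, adjusted p = 2.15e-06), and Mylip, which marks the low-density lipoprotein receptor for breakdown, rose, with 5.34 to 10.6 CPM at 12 h and 21.5 to 28.1 CPM at 72 h (log2 difference 1.7, SE 0.27, adjusted p = 1.05e-05). Without sample 2 of 12 h, 3 of these genes were lower, since Fasn (-0.94) and Pmvk (-0.91) missed the threshold, and with median-ratio scaling 3 were lower too. Fasn missed it with median-ratio scaling (-0.851), quantile normalization (-0.868), edgeR (-0.879) and DESeq2 (-0.859) as well. Of 21 genes of glycolysis and the hypoxia response, 3 fell and 2 rose (14.3% and 9.52%). The median was -0.03 in chondrogenesis, -0.95 in osteogenesis and -0.19 in adipogenesis. Ldha, lactate dehydrogenase A, had 2708, 3548 and 2547 CPM at 12 h and 1183, 1149 and 1043 CPM at 72 h (log2 difference -1.37, SE 0.14, adjusted p = 6.99e-09), and Pgk1, phosphoglycerate kinase, had 1042 to 1397 CPM at 12 h and 493 to 534 CPM at 72 h (log2 difference -1.18, SE 0.16, adjusted p = 4.41e-07). Pgk1 was short of the threshold with median-ratio scaling (-0.969), edgeR (-0.999) and DESeq2 (-0.979). Car9, a carbonic anhydrase known as a hypoxia target, rose from 3.03, 2.65 and 2.85 to 10.5, 8.62 and 12.2 CPM (log2 difference 1.56, SE 0.29, adjusted p = 7.32e-05).

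Several inflammatory genes fell. Of 20 tested, 6 were lower and 1 was higher, against 5.23% lower among all genes, with a median of -0.26. Ccl7, a chemokine close to Ccl2, had 367, 378 and 362 CPM at 12 h and 69.8, 89.98 and 82.9 CPM at 72 h (log2 difference -2.18, SE 0.36, adjusted p = 1.58e-05). Cxcl1, which attracts neutrophils, had 655, 643 and 701 CPM at 12 h and 209, 231 and 188 CPM at 72 h (log2 difference -1.67, SE 0.13, adjusted p = 1.23e-11). Neither gene had a 72 h sample within the range at 12 h. The others that fell were Ccl2 and Il1rl1, given above, Il1b and Il6st. Il1b was low throughout, with 1.01 to 2.03 CPM at 12 h and 0 to 0.256 CPM at 72 h, and was short of the threshold after thinning to the lowest total of reads (-0.883). Il6st, the shared receptor of the interleukin 6 family, had 1.3 to 3.43 CPM at 12 h and 0 to 0.884 CPM at 72 h (log2 difference -1.12, SE 0.35, adjusted p = 0.0115) and was not called without sample 2 of 12 h (adjusted p = 0.094) or sample 1 of 72 h (adjusted p = 0.0827). The complement protease C1r rose, with 115 to 178 CPM at 12 h and 319 to 332 CPM at 72 h (log2 difference 1.12, SE 0.15, adjusted p = 6.87e-07), but was at 0.93 without sample 3 of 12 h. Among all genes 7.98% were higher and 5.23% lower. In smaller lists, 2 interferon response genes of 12 rose and 1 fell (16.7% and 8.33%), and 2 glucocorticoid-responsive genes of 6 rose and 1 fell (33.3% and 16.7%). Of 9 genes of FGF and PDGF signalling 1 rose (11.1%), of 5 circadian genes 1 (20%), and of 8 cell-cycle inhibitors and p53 targets 2 (25%). Of the interferon genes 1 rose without sample 2 of 12 h and none without sample 3 of 72 h. Without sample 2 of 72 h, 2 genes of FGF and PDGF signalling rose and 1 circadian gene fell, and without sample 3 of 72 h 1 cell-cycle inhibitor fell.

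**Figure D4:**
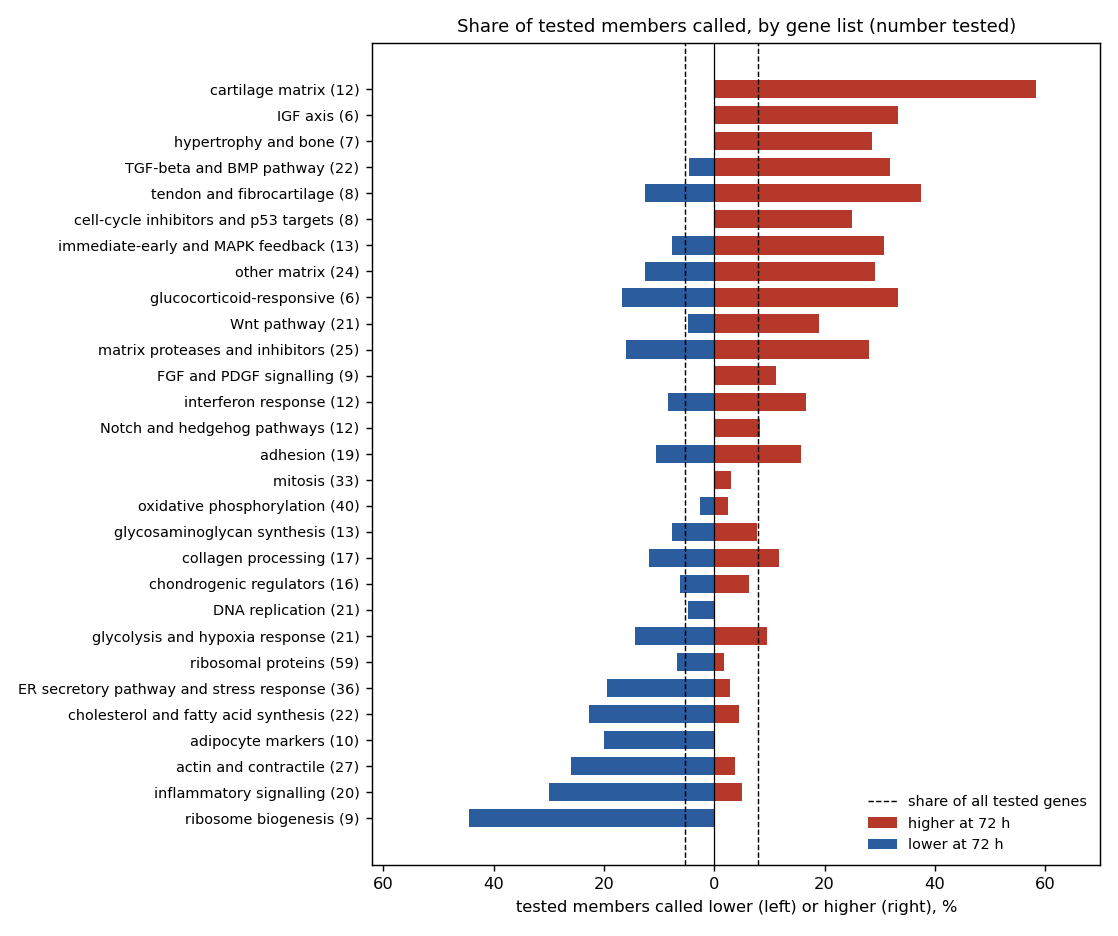
Bars give the share of the tested members that were higher (red, right) or lower (blue, left) at 72 h than at 12 h of chondrogenesis, for the function and adipocyte marker lists with at least 6 tested genes, with the number tested in brackets and dashed lines at the shares over all tested genes (7.98% and 5.23%). Cartilage matrix stands at 58.3% higher and ribosome biogenesis at 44.4% lower, and both rest on few genes.

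Of 21 tested DNA replication genes, Mcm6 was the 1 that fell and none rose, and of 33 tested mitosis genes, Hmgb2 was the 1 that rose and none fell. These are 4.76% lower and 3.03% higher, against 5.23% lower and 7.98% higher among all genes, so the share of DNA replication genes that fell was near that of all genes. At an unadjusted p under 0.05 in limma 1 DNA replication gene was higher and 8 lower, and 8 mitosis genes were higher and 1 lower. Of all 4363 genes, 1834 passed that p in either direction. DESeq2 called 1 DNA replication gene higher and edgeR 0, and they called 5 and 4 mitosis genes higher and 0 lower. Over all 4363 genes DESeq2 and edgeR called 461 and 455 higher. With median-ratio scaling 4 mitosis genes rose, and without sample 2 of 12 h or sample 3 of 72 h 2 rose. Mcm6, a subunit of the replicative helicase, had 128, 139 and 117 CPM at 12 h and 58.98, 45.8 and 50.03 CPM at 72 h (log2 difference -1.3, SE 0.12, adjusted p = 3.53e-10). Hmgb2, a chromatin protein of dividing cells, had 0.156 to 0.578 CPM at 12 h and 2.65 to 4.103 CPM at 72 h (log2 difference 1.7, SE 0.3, adjusted p = 4.19e-05). Over the same interval the median of the DNA replication genes was -0.12 in chondrogenesis, -2.81 in osteogenesis and -2.34 in adipogenesis, and that of the mitosis genes was 0.27, -2.77 and -2.08. The difference between changes was tested as an interaction in the same model. Over all genes, 981 of 4363 (22.5%) changed differently in chondrogenesis than in osteogenesis, and 841 (19.3%) differently than in adipogenesis. The change in chondrogenesis was the higher one in 563 of the former, and in 450 of 1059 with the listed genes of every sample set to 1 common total. It was the higher one in 568 of the latter, in 411 of 858 with that rescaling, in 465 of 869 with median-ratio scaling and in 436 of 823 with quantile normalization. Among DNA replication genes, 20 of 21 changed differently than in osteogenesis and 16 of 21 differently than in adipogenesis. Among mitosis genes the numbers were 28 of 33 and 27 of 33. In each of these the change in chondrogenesis was the higher one, under every scaling tried as well. Over all alternatives tried the numbers for osteogenesis were 16 to 20 and 24 to 29, and those for adipogenesis 14 to 16 and 23 to 27. Fewer members were tested under the filter on a mean of at least 1 CPM. The numbers for adipogenesis were 14 to 16 and 25 to 27 when 1 adipogenic sample was left out. Samples of that lineage held uneven shares of listed reads, 54.2 to 64.6% at 12 h and 38.9 to 49.0% at 72 h, whose part in these values was not tested.

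Summed over the 21 DNA replication genes, chondrogenic samples had 3374 ± 166 CPM at 3 h, 1057 ± 42.2 at 12 h and 715 ± 41.1 at 72 h (mean ± SD, n = 3), whereas osteogenic samples had 2450 ± 58.7, 5674 ± 111 and 492 ± 31.0. The adipogenic samples had 2378 ± 119, 2780 ± 233 and 366 ± 58.8, and cells at 0 h had 706 ± 15.1. For these genes the chondrogenic mean at 72 h was near that at 0 h, and among the 4 times it was highest at 3 h. For the 33 mitosis genes the chondrogenic sums were 3074 ± 54.1, 794 ± 27.8 and 961 ± 63.8 CPM, against 513 ± 17.4 CPM at 0 h, so the level at 72 h was above that before induction. The sums at 12 h were 4125 ± 17.2 CPM in osteogenesis and 3034 ± 1152 CPM in adipogenesis, where sample 1 had 4364 CPM, and at 72 h the sums were 181 ± 13.9 CPM in osteogenesis and 114 ± 23.2 CPM in adipogenesis. All 3 chondrogenic samples at 72 h (908 to 1032 CPM) lay above all osteogenic (167 to 195 CPM) and adipogenic (86.8 to 128 CPM) samples.

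**Figure D5:**
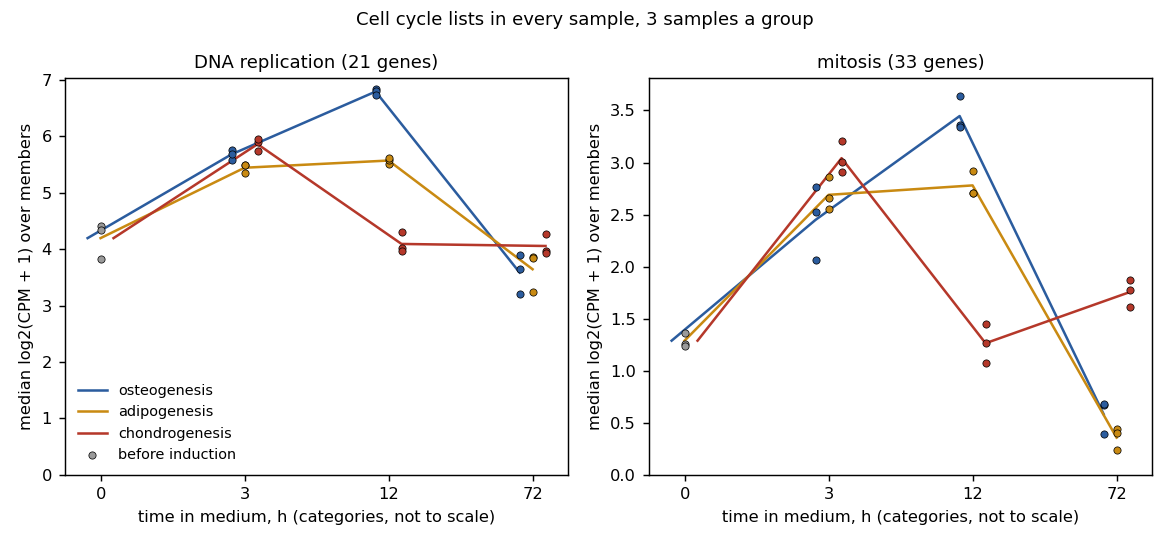
Points are samples and lines join group means, with the median log2(CPM + 1) over the members on the y axis and 0, 3, 12 and 72 h on the x axis (categories, not to scale). The chondrogenic samples fall between 3 and 12 h and stay at 3.93 to 4.27 for DNA replication at 72 h, and the other lineages fall after 12 h.

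Single genes of both lists illustrate this. Mcm3, another subunit of the helicase, had 83.8, 88.2 and 74.8 CPM at 12 h and 67.2, 52.2 and 51.4 CPM at 72 h, groups that did not overlap but a difference of only -0.53. In osteogenesis it went from 816 ± 33.8 to 19.9 ± 2.59 CPM (mean ± SD, n = 3) and in adipogenesis from 328 ± 64.7 to 13.2 ± 4.63 CPM, and the changes differed by 4.76 (SE 0.23, adjusted p = 1.1e-16) and 4.04 (SE 0.23, adjusted p = 8.9e-15). Cdt1, which licenses origins, had 15.2, 20.6 and 13.1 CPM at 12 h and 7.69, 12.6 and 11.3 CPM at 72 h, and its change exceeded that in osteogenesis by 4.87 (SE 0.26, adjusted p = 1.48e-15). Kif11, a motor of the spindle, had 87.1, 80.6 and 85.5 CPM at 12 h and 140.0, 127 and 133 CPM at 72 h. This rise did not reach the threshold (0.65), while Kif11 fell from 720.5 ± 40.6 to 12.7 ± 1.42 CPM in osteogenesis and from 499 ± 174 to 6.34 ± 0.553 CPM in adipogenesis, differences of 6.38 (SE 0.24, adjusted p = 4.59e-19) and 6.69 (SE 0.24, adjusted p = 7.22e-19). Birc5, survivin of the chromosomal passenger complex, had 30.04, 30.9 and 25.98 CPM at 12 h and 64.6, 48.9 and 44.5 CPM at 72 h, and Nuf2, of the kinetochore, had 69.3, 64.04 and 70.8 CPM at 12 h and 115, 104 and 103 CPM at 72 h. Against osteogenesis their changes differed by 7.14 and 6.65, and against adipogenesis by 6.9 and 7.34. Top2a, the topoisomerase of dividing cells, had 2.31 to 3.01 CPM at 12 h and 2.43 to 3.78 CPM at 72 h, with differences of 4.93 and 4.33. Each of these differences had an adjusted p under 0.05 in the limma model.

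Promoters of 3 genes of these lists are printed because the lists are known for elements that bind E2F factors in DNA replication genes, and for CCAAT boxes and cell cycle homology regions in mitosis genes. Windows, build and strand are as for Hspa5. Capitals mark TTTCCCGC and TTTCGCGC in Mcm3, TTTGGCGC and TTTCGCGC in Mcm6, where the matches overlap, and CCAAT and TTTGAAA in Ckap2, each on either strand.
Mcm3 (chr9:30733697-30733996, minus strand): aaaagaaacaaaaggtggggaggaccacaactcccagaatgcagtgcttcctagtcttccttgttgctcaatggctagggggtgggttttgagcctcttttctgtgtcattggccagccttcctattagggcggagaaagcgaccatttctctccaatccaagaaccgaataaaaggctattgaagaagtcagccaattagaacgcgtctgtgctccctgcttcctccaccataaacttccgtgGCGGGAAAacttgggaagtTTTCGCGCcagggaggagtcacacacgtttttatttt
Mcm6 (chr13:42404303-42404602, minus strand): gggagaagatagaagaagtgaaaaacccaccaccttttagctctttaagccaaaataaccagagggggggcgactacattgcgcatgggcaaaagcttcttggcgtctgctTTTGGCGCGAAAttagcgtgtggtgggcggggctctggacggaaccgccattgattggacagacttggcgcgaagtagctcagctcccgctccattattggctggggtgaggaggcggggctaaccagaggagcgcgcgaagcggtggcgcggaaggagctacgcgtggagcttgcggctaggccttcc
Ckap2 (chr16:76541864-76542163, plus strand): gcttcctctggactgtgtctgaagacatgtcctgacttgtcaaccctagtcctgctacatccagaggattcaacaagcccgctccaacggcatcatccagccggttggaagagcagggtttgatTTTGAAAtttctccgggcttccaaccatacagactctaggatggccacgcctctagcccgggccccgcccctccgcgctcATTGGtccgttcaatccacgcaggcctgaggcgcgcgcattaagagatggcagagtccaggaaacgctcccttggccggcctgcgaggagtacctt
Among 16 DNA replication members with a window, TTTCCCGC was in 5, TTTGGCGC in 4 and TTTCGCGC in 6, against 0.974%, 0.493% and 0.326% of all 33469 windows and 1.81%, 0.811% and 0.749% of those of tested genes. Among 27 mitosis members with a window, CCAAT was in 19 and TTTGAAA in 6, against 37.5% and 6.81% of all windows and 37.6% and 4.24% of those of tested genes. Ckap2, a spindle protein, had 2.74, 3.43 and 2.22 CPM at 12 h and 5.898, 7.52 and 5.34 CPM at 72 h and a change that exceeded that in osteogenesis by 3.98 (SE 0.38, adjusted p = 8.28e-10) and that in adipogenesis by 4.68 (SE 0.38, adjusted p = 3.27e-11).

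Matrix genes also differed between lineages over this interval. Of the 12 cartilage matrix genes, 6 changed differently than in osteogenesis (22.5% of all genes) and 8 differently than in adipogenesis (19.3% of all genes), and over the alternatives tried these counts ran from 2 to 6 and from 4 to 9. All 6 differences from osteogenesis were higher in chondrogenesis, whereas of the 8 from adipogenesis 6 were higher and 2 lower. The lower ones were Prg4, lubricin of the joint surface, at -1.65 (SE 0.3, adjusted p = 7.54e-05), and Frzb at -3.44 (SE 0.57, adjusted p = 2.11e-05), which was not called with a pseudocount of 0.1 (adjusted p = 0.216) or by edgeR (adjusted p = 0.26). Summed over the 12 genes, the chondrogenic samples had 527 to 597 CPM at 72 h and the osteogenic ones 159 to 192 CPM, while the 3 adipogenic samples had 2225, 2324 and 270.4 CPM, so that 2 of them lay above chondrogenesis and 1 below it. These sums say little about the 7 members that rose, since Thbs3, which was not called, had 439 to 470 CPM in chondrogenesis at 72 h, and in adipogenesis Lum had 965 ± 816 CPM and Frzb 471 ± 307 CPM (mean ± SD, n = 3). Tgfbi changed by 0.2 in osteogenesis and -1.75 in adipogenesis, and the differences from chondrogenesis were 3.02 (SE 0.43, adjusted p = 1.51e-06) and 4.98 (SE 0.43, adjusted p = 1.31e-10). Clec11a differed from osteogenesis by 2.73 (SE 0.41, adjusted p = 3.99e-06) and from adipogenesis by 3.07 (SE 0.41, adjusted p = 6.91e-07), and Lama1 by 4.7 (SE 0.43, adjusted p = 4.61e-10) and 4.49 (SE 0.43, adjusted p = 1.6e-09). Comp was at most 0.468 CPM as a mean of 3 samples in the other lineages at 72 h, and the differences were 4.28 (SE 0.33, adjusted p = 8.19e-12) and 3.97 (SE 0.33, adjusted p = 5.98e-11), the second of which edgeR on the recovered reads did not call (adjusted p = 0.172). For Igfbp5 the differences were 3.85 (SE 1.04, adjusted p = 0.00455) and 3.87 (SE 1.04, adjusted p = 0.00516), with edgeR at an adjusted p of 0.0584 for the first and a fit on the groups compared at 0.0962 for the second, and in adipogenesis it went from 369 ± 345 to 10096 ± 8414 CPM. Myh10 changed by -0.61 in osteogenesis and -0.95 in adipogenesis, both short of the threshold, and the differences from chondrogenesis were 2.34 (SE 0.15, adjusted p = 2.14e-13) and 2.68 (SE 0.15, adjusted p = 1.16e-14). Hspa5 differed by -1.42 (SE 0.25, adjusted p = 3.7e-05) and -2.11 (SE 0.25, adjusted p = 7.47e-08).

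Markers of blood and endothelial cells were at or near 0. Of the BMSC markers, Thy1, Itgb1 and Cd44 were present, whereas Vcam1 was listed at 0 and Eng, Pdgfra, Nes and Alcam were at or near 0. Of 8 blood cell markers named in the files, Adgre1, Csf1r, Mrc1 and Cd3g were listed at 0 in all 6 samples and Lyz2 was at most 0.44 CPM. The 4 endothelial markers summed to at most 3.33 CPM per sample. The 5 mural markers summed to 91.9 to 130 CPM at 12 h and 74.1 to 86.4 CPM at 72 h. Of these sums, Cspg4 alone had 91.1 to 129 CPM at 12 h and 73.2 to 85.1 CPM at 72 h. Notch3 and Pdgfrb were at most 1.33 and 0.44 CPM, and Abcc9 and Kcnj8 were listed at 0. The 13 adipocyte markers summed to 133 to 146 CPM at 12 h and 25.1 to 25.6 CPM at 72 h, while Pparg and Cidec were listed at 0. Apart from Lpl and Dgat2, given below, no member was above 2.18 CPM. None of the tested markers of BMSCs (4), blood cells (2) or endothelial and mural cells (5) was called in limma, edgeR or DESeq2. At an unadjusted p under 0.05 in limma, 2 BMSC markers were lower and 0 of the blood, endothelial and mural markers passed. Among all 4363 genes 1834 passed that p in either direction. Of 10 tested adipocyte markers 2 fell (20%, against 5.23% of all genes). Lpl, lipoprotein lipase, had 83.3, 78.2 and 96.8 CPM at 12 h and 13.6, 13.5 and 14.7 CPM at 72 h (log2 difference -2.54, SE 0.32, adjusted p = 1.97e-07), and Dgat2, which completes triglyceride synthesis, had 50.3, 50.5 and 46.4 CPM at 12 h and 8.72, 9.95 and 7.78 CPM at 72 h (log2 difference -2.36, SE 0.19, adjusted p = 2.55e-11). Both were lower in every 72 h sample, and a part of other cell types in these values was not tested.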

How the data were processed

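RNA-seq of rat BMSCs was analysed from 6 chondrogenic samples (12 and 72 h, 3 each), with the other 24 samples in the same model. The submitters' processing notes name Trimmomatic, HISAT2 and StringTie, and versions and genome build are not given in the sources used here. The deposited values are CPM made by the authors, although the files are named as FPKM: all values were whole multiples of 1 read (tolerance 0.02), so no gene length is in them and whole reads could be recovered. The labels and the published methods name different library kits, so the RNA selection is uncertain.

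Rows that share a gene name were summed (9999 names from 10803 rows). The 4363 genes that reached 1 CPM in 3 or more samples were fitted as log2(CPM + 1) with limma 3.58.1 (trend, R 4.3.3) over all 10 groups. Genes were called at a log2 difference of at least 1 and a Benjamini-Hochberg adjusted p under 0.05. Differences on this scale understate changes of low genes. Lineages were compared by interaction contrasts. Named genes are the 15 largest rises and 15 largest falls with groups that do not overlap, members of the gene lists, and for each lineage difference the 5 largest in each direction among called genes. The members and lists were chosen with earlier results of these data known. Alternatives were other scalings, filters and pseudocounts, thinning to the lowest total of reads, leaving out samples, a replicate block, and edgeR 4.0.16 and DESeq2 1.42.0 on recovered reads. The scripts were tested on simulated data. Of the tested names, 3928 are current RefSeq symbols, 163 are synonyms, and 6 are numbers of spreadsheet dates. Promoter windows are from RefSeq (GRCr8), whose coordinates were not mixed with those of the deposited files. Antisense and paralogous genes may share reads. Some items that these rules select are not reported here.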

Additional observations from a re-analysis of the deposited data

Results flagged for a closer look

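Several genes changed in opposite directions, or by different amounts, in chondrogenesis and in another lineage between 12 and 72 h, by a limma test of the difference itself. Values are log2 differences of the change in chondrogenesis minus the change in the other lineage, and all have an adjusted p under 0.05. They rest on 3 samples a group.

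A higher change in chondrogenesis was seen for the following genes. Against osteogenesis the differences were 8.65 for the uncharacterized LOC102549061, 7.39 for the linker histone gene Hist1h1a, 6.69 for the core histone gene Hist1h2ak, 6.46 for Aunip, which binds Aurora kinase A, 5.76 for the scaffold Iqgap3 and 3.07 for Hmgb2. Against adipogenesis they were 8.21 for LOC102549061, 6.36 for Hist1h1a, 5.56 for Hist1h2ak, 5.27 for Aunip, 5.77 for Iqgap3 and 3.17 for Hmgb2. Hist1h1a had 13.3, 12.6 and 10.3 CPM at 12 h and 32.1, 28.1 and 26.2 CPM at 72 h in chondrogenesis, and went from 278 ± 30.9 to 2.79 ± 0.0908 CPM in osteogenesis (mean ± SD, n = 3). All 3 chondrogenic samples rose above their 12 h range while the osteogenic mean fell.

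Dclk3 differed by 6.56 from osteogenesis and 6.2 from adipogenesis, the latter not called by edgeR (adjusted p = 0.97). Lama1 differed by 4.7 and 4.49. Tgfbi differed from adipogenesis by 4.98 and Ibsp by 5.27.

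A lower change in chondrogenesis was seen for the following genes. Against osteogenesis the differences were -6.28 for the lipid phosphatase Plpp3, -6.2 for angiotensin-converting enzyme, Ace, -5.76 for Lpl, -4.54 for Dgat2, -4.29 for Wisp2 and -2.79 for Vcl. Against adipogenesis they were -5.51 for Ace, -3.93 for Lpl, -4.81 for Gldn, -3.3 for Wisp2, -3.44 for Frzb and -3.4 for Mip. The value of Frzb was not called with a pseudocount of 0.1 (adjusted p = 0.216) or by edgeR (adjusted p = 0.26), and that of Mip not by edgeR (adjusted p = 1) or DESeq2 (adjusted p = 0.588). Ace had 5.63, 6.08 and 5.23 CPM at 12 h and 1.28, 1.99 and 2.67 CPM at 72 h in chondrogenesis, and the fall itself was not called without sample 1 of 72 h (adjusted p = 0.0541).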

How the results depend on the processing

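The 576 DEGs became 560 to 769 under the other scalings, filters, pseudocount and tests except for the filter on a mean of at least 1 CPM (484), with edgeR at 654 and DESeq2 at 647, and 576 to 615 when 1 sample was left out. The number of lower genes moved most, from 228 to 149 with median-ratio scaling and to 380 with a pseudocount of 0.1. The number of genes with a higher change than in adipogenesis moved from 568 to 370 with DESeq2 and 368 with edgeR, and the number with a lower change from 273 to 447 with the listed genes of every sample set to 1 common total. Leaving out 1 sample gave 910 to 986 differences from osteogenesis (981 with all) and 750 to 874 from adipogenesis (841 with all). The replicate number used as a block in the model left 576 DEGs, 981 differences from osteogenesis and 838 from adipogenesis, and changed no call of a named gene. Samples of the same number did not deviate together (correlations of -0.0463, -0.00233 and 0.0777). A pairing by number was thus not seen, but 3 samples a group are too few to decide this. Of 123 named genes, 11 lost their call with median-ratio scaling, 10 with DESeq2, 8 with quantile normalization, 6 with edgeR and 0 to 7 when 1 chondrogenic sample was left out, and none with a result changed direction in these settings. DESeq2 gave no adjusted p for Kprp. The cause was not tested. The lower totals at 72 h limit what can be said of genes under 0.769 CPM there, and thinning every sample to the lowest total of reads gave 586 DEGs.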
